A study of Mus musculus with 9 samples.

Results

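The 58 genes described here carry a cell from G1 into S phase and copy its DNA. They were chosen by name, as rows of the deposited expression table whose symbol is on a fixed list of cyclins, kinases, E2F and RB proteins, replication factors and a few repair and chromatin genes, and all 58 were found among 53715 gene IDs. RNA had been sequenced from primary myoblasts, the muscle precursor cells, at passage 1, from mice of the strain C57BL/10ScSn-Dmdmdx/J. Every library thus came from cells with the mdx mutation of the dystrophin gene, and no wild-type or untreated group was analysed here. Glycine, an amino acid, was given at 0.2 mM to 3 of the 9 libraries' cells and at 0.8 mM to those of the other 6, and the question is how the RNA of these genes differs between the levels. Nothing in the labels says that replicate libraries came from separate cultures or animals. The p-values therefore reflect only how these samples vary, and that variation may be technical. Each glycine level is also its own numbered series of libraries, so an effect of the series and one of glycine cannot be told apart.

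As background, D-type cyclins bind the kinases CDK4 and CDK6 and start the phosphorylation of RB, which releases E2F transcription factors. E2F then raises cyclin E, which activates CDK2, and a large set of replication genes. Origins are licensed in G1, when ORC, CDC6 and CDT1 load the MCM helicase, and geminin blocks CDT1 once S phase has begun. Myoblasts leave this cycle before they fuse into fibres, and cyclin D3 is known to persist in differentiating muscle cells.

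Values are TPM, a length-scaled share of each library's transcripts, which allow levels of different genes to be compared. A gene was tested if at least 3 libraries had at least 1 TPM, and "rose" and "fell" mean the step from 0.2 to 0.8 mM at an adjusted p under 0.05. The test was limma on log2(TPM + 1) over all 10049 genes that met the filter, with Benjamini-Hochberg adjustment. For genes near or below 1 TPM, log2 fold changes on this scale are smaller than the change in TPM itself. TPM keep no read numbers, so the depth behind each value is unknown.

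Most of these genes did not pass the test. Of 40 tested members, 4 rose, 2 fell and 34 did not pass, whereas 26.6% of all tested genes passed, 16.7% upward and 9.81% downward. The members that rose were Ccnd3, Cdk6, Ccne1 and Gmnn, and those that fell were Cdk4 and Mcm7. Ccnd3, Ccne1, Gmnn and Cdk4 had groups that did not overlap, 4 of 40 members against 28.2% of all tested genes. The median log2 fold change was 0.087 over the tested members and 0.062 over all tested genes, and 31 of 40 members had a value above 0, against 56.1% of all tested genes. Of all genes that passed, 63.1% rose, a share that came to 52.6% after median-ratio scaling and to 49.8% after quantile normalization. Among the members above 0, Lig1, Slbp, Rb1, Fen1 and Pcna turned below 0 with either of these scalings. Pola2, Prim2, E2f1 and Pold1 did so with quantile normalization alone. The tested members had a median level of 2.48 TPM, against 4.05 TPM for all tested genes. Among the 4306 tested genes between the quartiles of the members' levels, 1.38 and 5.84 TPM, 17.4% passed.

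**Figure D1:**
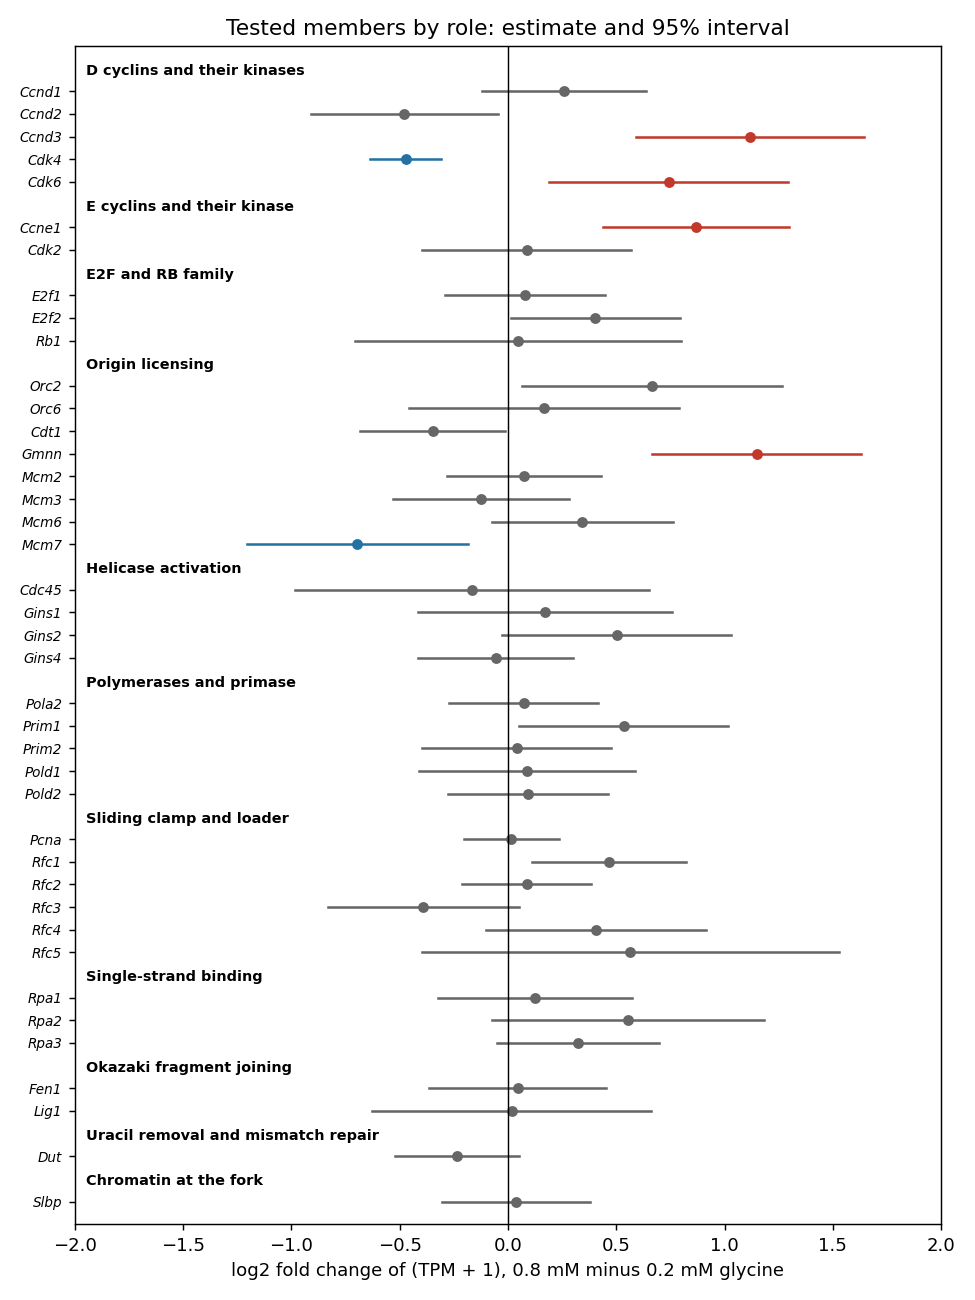
Horizontal axis, difference in mean log2(TPM + 1) between 0.8 and 0.2 mM, positive where 0.8 mM was higher, for each of the 40 tested members by role, with the 95% interval from limma as a line. Red members rose, blue members fell and grey members did not pass; the estimates run from -0.70 for Mcm7 to 1.15 for Gmnn, and most grey intervals include 0.

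Promoter sequence was compared for the members, since E2F sites are the best-known shared feature of replication genes. RefSeq promoters on GRCm38.p6 matched 46 of the 58 by symbol. In the 250 bases before each start, an E2F-type site on either strand (TTTCCCGC, TTTCGCGC, TTTGCCGC or TTTGGCGC) was found for 12 of 46 members, or 26.1%, against 2.16% of all 27025 genes with a promoter in the table and 3.83% of the 7172 tested genes with one. The 12 were Mcm5, Mcm6, Mcm7, Cdc6, Orc1, Gins3, Cdk2, E2f3, Rbl1, Pola1, Rfc3 and Uhrf1. A CCAAT box (CCAAT, either strand) was found for 60.9% of members, 37.5% of all genes and 40.2% of the tested genes. The E-box CACGTG, searched after the sequences had been seen, was found for 8 of 46 members, or 17.4%. It was found for 6.86% of all genes and 10.4% of the tested genes. These matches are descriptions of letters and not of bound sites.

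The stretches printed below show 3 subunits of the MCM helicase that differ in their RNA, then a member that rose and a member that fell. They are the parts of the window that hold no annotated exon, 5′ to 3′ on the gene's strand, for Mcm5 (chr8:75109259-75109508, plus strand), Mcm6 (chr1:128359706-128359955, minus strand), Mcm7 (chr5:138171267-138171516, minus strand), Ccne1 (chr7:38107535-38107740, minus strand) and Cdk4 (chr10:127063285-127063533, plus strand). Capitals mark E2F-type sites, CCAAT boxes (read as CCAAT or ATTGG) and E-boxes, and adjoining capitals can be overlapping sites on opposite strands.
Mcm5: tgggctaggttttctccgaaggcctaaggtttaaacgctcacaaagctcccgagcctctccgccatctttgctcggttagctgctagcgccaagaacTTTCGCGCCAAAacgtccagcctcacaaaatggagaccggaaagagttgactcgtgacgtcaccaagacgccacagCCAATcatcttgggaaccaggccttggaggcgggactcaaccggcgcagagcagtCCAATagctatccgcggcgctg
Mcm6: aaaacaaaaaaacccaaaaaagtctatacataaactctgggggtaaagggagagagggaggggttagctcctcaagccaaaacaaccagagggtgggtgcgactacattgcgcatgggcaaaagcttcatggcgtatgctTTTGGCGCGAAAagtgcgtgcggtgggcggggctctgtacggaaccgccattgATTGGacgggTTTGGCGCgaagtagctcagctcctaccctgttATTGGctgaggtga
Mcm7: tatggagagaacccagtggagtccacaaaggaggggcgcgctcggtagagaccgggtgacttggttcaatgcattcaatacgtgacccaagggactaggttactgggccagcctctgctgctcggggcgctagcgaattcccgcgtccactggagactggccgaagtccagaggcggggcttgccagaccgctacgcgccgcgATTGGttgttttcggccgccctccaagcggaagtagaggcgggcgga
Ccne1: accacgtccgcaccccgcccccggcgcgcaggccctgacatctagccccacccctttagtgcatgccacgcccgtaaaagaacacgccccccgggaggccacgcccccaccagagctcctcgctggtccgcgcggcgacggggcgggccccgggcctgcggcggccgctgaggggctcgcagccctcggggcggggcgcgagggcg
Cdk4: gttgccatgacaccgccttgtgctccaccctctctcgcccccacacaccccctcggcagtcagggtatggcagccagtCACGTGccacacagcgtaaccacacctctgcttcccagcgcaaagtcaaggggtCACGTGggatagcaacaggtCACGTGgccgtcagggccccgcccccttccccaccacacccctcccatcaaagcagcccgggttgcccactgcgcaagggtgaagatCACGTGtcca
Mcm6 holds 3 E2F-type sites and Mcm5 holds 2, and in each of them a pair overlaps. The stretch for Mcm7, before the downstream of its RefSeq starts, holds a CCAAT box and no E2F-type site. The window of the other Mcm7 start holds an E2F-type site but lies within annotated exons. Ccne1 has no match, which says only that these letters are not in its window. Cdk4 has 4 E-boxes, the motif that MYC is known to bind.

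The D cyclins shifted in proportion. Ccnd3 (chromosome 17, 47505051 to 47599691), which encodes cyclin D3, was at 13.9, 12.6 and 30.1 TPM at 0.2 mM and between 30.5 and 48.2 TPM (median 38) at 0.8 mM. Every 0.8 mM library was above every 0.2 mM library, but replicate 3 at 0.2 mM came within 1 TPM of the lowest of them. The rise was from 18.9 ± 9.73 to 39.6 ± 6.43 TPM (mean ± SD, as throughout), a log2 difference of 1.12 ± 0.24 (SE; limma, adjusted p = 0.00511), and 1.49 without 0.2 mM replicate 3. Ccnd2, cyclin D2, was at 31.2, 39.6 and 37.3 TPM at 0.2 mM and between 16.4 and 34.1 TPM (median 26.7) at 0.8 mM. Of its 0.8 mM libraries 5 of 6 lay below the 0.2 mM range, and it did not pass (log2 fold change -0.48 ± 0.20, limma adjusted p = 0.0988). Ccnd1, cyclin D1, was far lower than the others, at 1.22, 0.921 and 1.16 TPM and between 1.03 and 2.17 TPM (median 1.51), and did not pass. The annotation places LTO1 on the opposite strand over 23.4% of its exon bases.

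The balance between cyclins D2 and D3, taken within each library, differed between the glycine levels. Ccnd3 made up 30.1%, 23.8% and 43.9% of summed D cyclin TPM at 0.2 mM and 49.1 to 71.3% at 0.8 mM. The mean share was 32.6 ± 10.3% and 58.9 ± 7.33%, higher in 6 of 6 libraries than in any at 0.2 mM (exact two-sided permutation p = 0.0238, the smallest the design allows, and 0.0286 adjusted over the 6 shares compared). The share of Ccnd2 went from 65.4 ± 10.2% to 38.7 ± 7.74% (exact permutation p = 0.0238, adjusted 0.0286), and that of Ccnd1 was 2.02 ± 0.526% and 2.33 ± 0.727% (exact permutation p = 0.5). Ccnd2 thus stood above Ccnd3 in all 3 libraries at 0.2 mM, and Ccnd3 stood above Ccnd2 in 5 of 6 at 0.8 mM, the exception being replicate 5. The shares of a family sum to 100%, so the tests within it are not independent. The Ccnd3 values were already known not to overlap, and 5 of 6 Ccnd2 values at 0.8 mM lay below the 0.2 mM range. The p-values of both shares therefore add little support.

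The partner kinases moved in opposite directions. Cdk4 (chromosome 10, 127063534 to 127067920) was the most abundant of the 58 genes, at 55.8, 58.5 and 59.9 TPM at 0.2 mM and between 38.6 and 47.4 TPM (median 40.9) at 0.8 mM. All 6 libraries at 0.8 mM lay below all 3 at 0.2 mM, and the fall from 58.1 ± 2.10 to 41.6 ± 3.03 TPM had a log2 difference of -0.47 ± 0.07 (SE; limma, adjusted p = 0.000719). Its exons overlap Tspan31 on the opposite strand over 641 bases, or 19.7% of their length, and Tspan31 was at 16.7 ± 0.513 and 19.98 ± 2.13 TPM. Whether the authors' counting used strand is not given in the sources used here. Cdk6 was at 6.03, 1.95 and 3.70 TPM at 0.2 mM and between 5.19 and 9.52 TPM (median 6.56) at 0.8 mM, so the groups overlapped. It passed narrowly, with a log2 fold change of 0.74 ± 0.25 (limma adjusted p = 0.0495), and missed the threshold with any of 7 of the 9 libraries left out, with either other scaling and in most other alternatives (kept in 5 of 19). Without 0.2 mM replicate 2 the log2 fold change was 0.42 (adjusted p = 0.219). Of the summed TPM of the pair, a comparison chosen after the values were seen, Cdk6 made up 6.26 ± 3.29% at 0.2 mM and 13.9 ± 1.87% at 0.8 mM (by exact permutation, p = 0.0238, adjusted 0.0286).

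**Figure D2:**
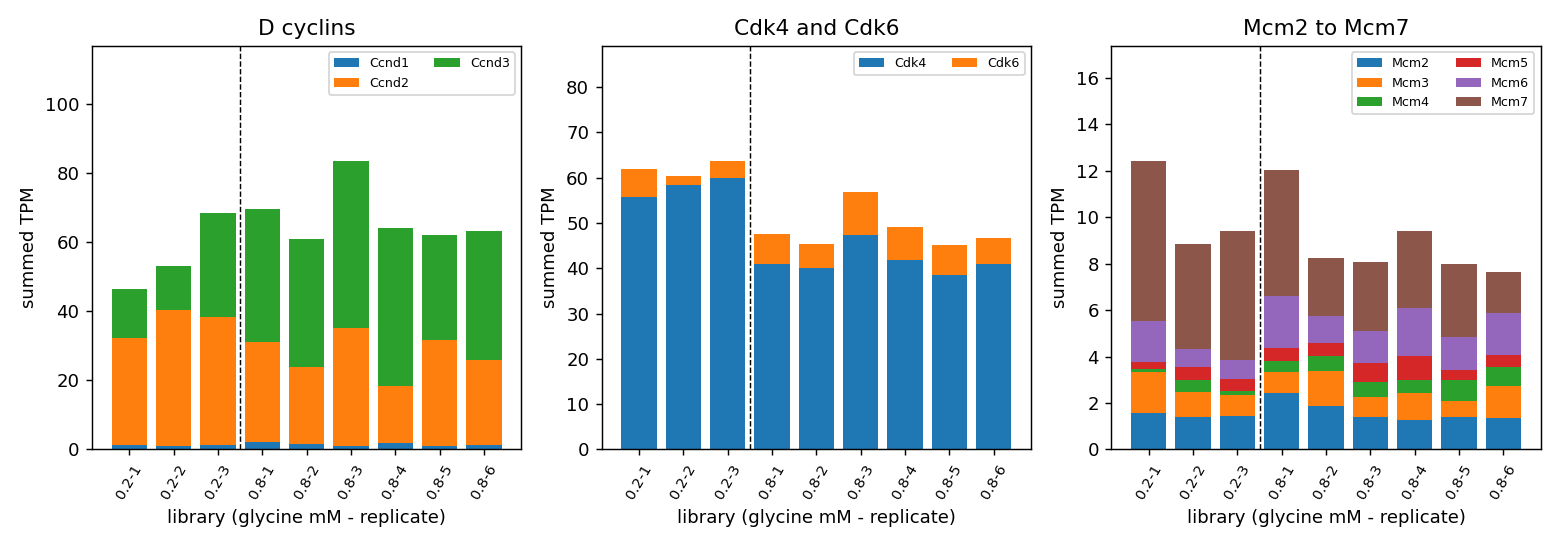
TPM of the D cyclins, of Cdk4 and Cdk6 and of the 6 MCM subunits, stacked for each library (vertical axis, summed TPM from 0), with 0.2 mM libraries left of the dashed line and 0.8 mM libraries right of it. The green Ccnd3 segment is 23.8 to 43.9% of the D cyclin bar at 0.2 mM and 49.1 to 71.3% at 0.8 mM, and the brown Mcm7 segment is the largest of the MCM bar in each 0.2 mM library.

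Ccne1, cyclin E1 (chromosome 7, 38097984 to 38107534), was low in every library but separated the groups. It was at 0.586, 0.400 and 0.663 TPM at 0.2 mM and between 1.11 and 2.78 TPM (median 1.74) at 0.8 mM, with means of 0.550 ± 0.135 and 1.88 ± 0.630 TPM, 3.42 times as high. Its log2 fold change of 0.87 ± 0.19 (SE) passed (limma adjusted p = 0.00668). Ccne1 met the filter through its 0.8 mM libraries alone, as did Gins2 and Prim2, so a gene like it could only be tested if it was higher there. Ccne2, cyclin E2, stayed under the filter, listed at 0.173, 0.105 and 0 TPM and between 0 and 1.10 TPM. Cdk2, the kinase of both E cyclins, was at 2.08, 1.13 and 2.65 TPM and between 1.31 and 2.96 TPM (median 2.19) and did not pass (limma adjusted p = 0.817).

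None of the E2F and RB genes passed. E2f2, an activator of S phase genes, was at 1.39, 1.09 and 0.841 TPM and between 1.29 and 2.84 TPM (median 1.71), above the 0.2 mM range in 5 of 6 libraries (limma adjusted p = 0.121). E2f1, another activator, was at 1.10, 0.950 and 0.454 TPM and between 0.622 and 1.18 TPM (median 0.951). Rb1 varied most, at 1.13, 2.39 and 0.743 TPM and between 0.582 and 3.44 TPM (median 1.15), with 95% limits of -0.70 and 0.80 on its log2 fold change of 0.05. E2f3 and the RB relative Rbl1 (p107) stayed under the filter, with highest values of 0.965 and 0.338 TPM.

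Among 12 licensing genes, Gmnn rose, Mcm7 fell, 6 did not pass and 4 stayed under the filter. Gmnn, the gene of the CDT1 inhibitor geminin (chromosome 13, 24751845 to 24761923), was at 3.40, 1.3 and 1.97 TPM at 0.2 mM and between 4.01 and 7.04 TPM (median 6.36) at 0.8 mM, with no overlap. It rose from 2.22 ± 1.08 to 5.99 ± 1.23 TPM, a log2 difference of 1.15 ± 0.22 (SE; limma, adjusted p = 0.00258). Its target Cdt1 was at 3.24, 2.60 and 3.99 TPM and between 1.76 and 2.75 TPM (median 2.34), and did not pass (log2 fold change -0.35 ± 0.15, limma adjusted p = 0.117). Of the summed TPM of the pair, a comparison chosen after the values were seen, Gmnn made up 39.2 ± 10.4% at 0.2 mM and 71.3 ± 6.75% at 0.8 mM, higher in 6 of 6 libraries (by exact permutation, p = 0.0238, adjusted 0.0286). The Gmnn values were already known not to overlap, so this p-value adds no support.

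The origin recognition subunit Orc2 was at 5.93, 2.33 and 3.69 TPM and between 3.47 and 9.19 TPM (median 7.12), and did not pass (limma adjusted p = 0.0976). It passed without 0.2 mM replicate 1 (0.0397) or 0.8 mM replicate 5 (0.0217), and Nif3l1 on the opposite strand covers 29.8% of its exon bases. Orc6 was at 2.98, 8.47 and 5.74 TPM and between 4.73 and 10.9 TPM (median 5.59), so its values at 0.2 mM spanned most of those at 0.8 mM. Cdc6, which loads the helicase with CDT1, was at or under 0.0547 TPM at 0.2 mM and between 0.118 and 0.400 TPM at 0.8 mM. Orc1 was listed at 0 in 7 libraries, among them every one at 0.2 mM.

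The subunits of the MCM helicase form a hexamer but were not at a common RNA level. Mcm7 (chromosome 5, 138164583 to 138172422) was the most abundant, at 6.88, 4.52 and 5.53 TPM at 0.2 mM and between 1.79 and 5.44 TPM (median 3.05) at 0.8 mM. Its fall from 5.64 ± 1.19 to 3.19 ± 1.23 TPM passed narrowly (log2 fold change -0.70 ± 0.23, limma adjusted p = 0.0468), with 5 of 6 libraries below the 0.2 mM range and replicate 1 within it. The call was lost with any of 8 of the 9 libraries left out, with adjusted p up to 0.175 without 0.2 mM replicate 1. Mcm2 followed at 1.55, 1.39 and 1.45 TPM and between 1.26 and 2.45 TPM (median 1.4), and Mcm6 at 1.77, 0.787 and 0.854 TPM and between 1.18 and 2.24 TPM (median 1.62). Mcm3 was at 1.26 ± 0.458 and 1.07 ± 0.338 TPM, and these 3 subunits had overlapping values within each group and did not pass. Mcm4 and Mcm5 stayed under the filter, at 0.263 ± 0.206 and 0.453 ± 0.141 TPM at 0.2 mM and 0.679 ± 0.171 and 0.651 ± 0.233 TPM at 0.8 mM. In a comparison also chosen after the values were seen, Mcm7 made up 55.1 ± 3.92% of summed Mcm2 to Mcm7 TPM at 0.2 mM and 35.0 ± 7.51% at 0.8 mM, lower in 6 of 6 libraries (by exact permutation, p = 0.0238, adjusted 0.0286). Of the Mcm7 exons, 7.25% overlap Ap4m1 on the opposite strand, and an annotated gene with 97.7% identity over 2157 bases, Gm5487, could share its reads.

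**Figure D3:**
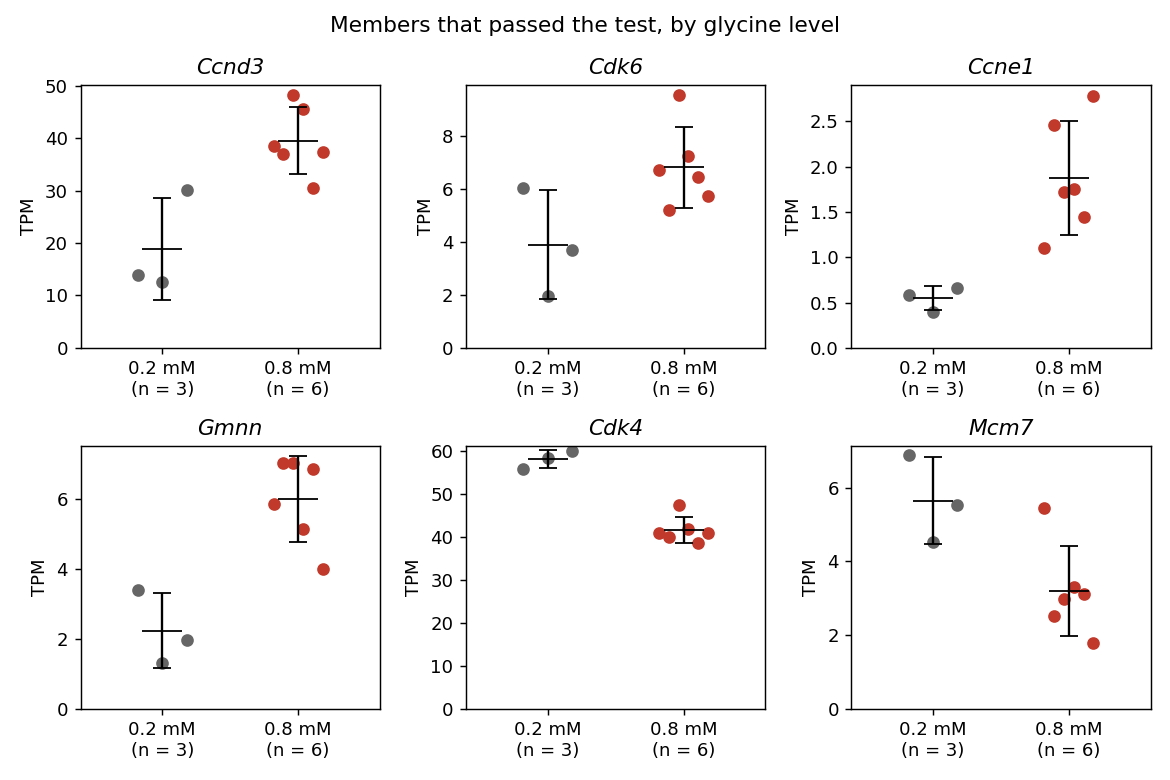
Vertical axes, from 0, give TPM of the 6 members that passed: grey points are the 3 libraries at 0.2 mM, red points the 6 at 0.8 mM, and black marks their means with SD. The groups do not overlap for Ccnd3, Ccne1, Gmnn and Cdk4, and they overlap for Cdk6 and Mcm7.

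None of the tested genes of helicase activation, the polymerases, the clamp and its loader, RPA or Okazaki fragment joining passed. Among the GINS subunits, which join CDC45 and the MCM ring in the active helicase, Gins4 was at 5.61, 4.87 and 4.16 TPM and between 3.28 and 5.77 TPM (median 4.85), above the others in every library. Gins1 was at 1.53, 1.69 and 0.305 TPM and between 0.942 and 2.47 TPM (median 1.13), and Gins2 at 0.730 ± 0.176 and 1.53 ± 0.748 TPM. Cdc45 was listed at 0 in 0.8 mM replicate 4 and at up to 2.67 TPM in the others of that group, against 1.57, 0.963 and 1.16 TPM at 0.2 mM. Gins2 shares 67.3% of its exon bases with Gse1 on the opposite strand, so its level is uncertain. Mcm10, which helps to activate the helicase, reached at most 0.643 TPM.

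Of the 9 listed polymerase and primase genes, Pold2, a small subunit of DNA polymerase delta, had the highest mean. It was at 5.35, 4.42 and 3.45 TPM and between 3.58 and 6.34 TPM (median 4.79), while the catalytic Pold1 was at 0.395, 1.5 and 0.926 TPM and between 0.492 and 1.82 TPM (median 0.988). Pola2 of the alpha complex was at 0.991, 1.38 and 0.784 TPM and between 0.899 and 1.55 TPM (median 1.10). The primase gene Prim1 was at 0.569 ± 0.493 and 1.22 ± 0.369 TPM (limma adjusted p = 0.0991) and passed without 0.2 mM replicate 1 (0.0358), and Prim2 was at 0.760 ± 0.108 and 0.844 ± 0.405 TPM. The catalytic subunits Pola1 and Pole, with Pole2 and Pold3, stayed under the filter.

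Pcna, the sliding clamp and a common marker of proliferation, did not pass. It was at 32.5, 33.6 and 26.6 TPM at 0.2 mM and between 27.2 and 34.2 TPM (median 31.6) at 0.8 mM, with a log2 fold change of 0.01 ± 0.10 and 95% limits of -0.20 and 0.23. Of the clamp loader, Rfc2 was at 4.88, 6.21 and 5.78 TPM and between 4.69 and 7.07 TPM (median 6.01), and Rfc4 at 2.86, 1.3 and 2.47 TPM and between 1.77 and 4.36 TPM (median 3.17). Rfc1, its large subunit, came close to the threshold, from 1.77 ± 0.245 to 2.85 ± 0.615 TPM (log2 fold change 0.47 ± 0.16, limma adjusted p = 0.0549), and passed without 0.8 mM replicate 2 (0.0466) or replicate 5 (0.0273), with a pseudocount of 0.1 (0.0473) and without the variance trend (0.0433). Rfc3 was at 3.37 ± 0.987 and 2.33 ± 0.687 TPM, and Rfc5 at 1.53 ± 1.15 and 2.95 ± 2.14 TPM, the widest spread of the loader. Rfc2 overlaps Lat2 on the opposite strand over 15.1% of its exon bases, and Lat2 fell from 13.2 ± 1.66 to 5.34 ± 2.66 TPM.

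RPA coats single-stranded DNA as a complex of 3 subunits. Its small subunit Rpa3 was at 21.8, 17.8 and 13.6 TPM and between 17.4 and 28.5 TPM (median 22.7), above Rpa2 at 3.94, 6.96 and 2.06 TPM and between 4.34 and 8.93 TPM (median 6.23). Rpa2 passed without 0.2 mM replicate 2 (adjusted p = 0.0382). The large subunit Rpa1 was lowest, at 1.2, 1.77 and 2.68 TPM and between 1.37 and 2.93 TPM (median 2.20). Fen1, which trims Okazaki fragments, was at 1.36, 0.919 and 1.29 TPM and between 0.786 and 2.03 TPM (median 1.27), and the antisense gene Gm10143 covers 78.8% of its exon bases. Tmem258 on the opposite strand covers 5.37% of them and was far more abundant, at 358 ± 6.02 TPM at 0.2 mM and 462 ± 32.3 TPM at 0.8 mM. Lig1, which seals Okazaki fragments, was at 1.95, 1.46 and 1.45 TPM and between 0.717 and 2.86 TPM (median 1.77).

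Dut, which keeps uracil out of DNA by removing dUTP, was at 9.58, 9.31 and 11.5 TPM and between 6.61 and 9.96 TPM (median 8.49), and did not pass (limma adjusted p = 0.215). Slbp, which binds the end of histone mRNA, was at 9.03, 10.1 and 7.40 TPM and between 7.53 and 12 TPM (median 8.67). The uracil glycosylase gene Ung and the mismatch sensor Msh6 were under 0.5 TPM in every library, and the chromatin assembly genes Chaf1a and Chaf1b and the methylation reader Uhrf1 also stayed under the filter. Chaf1a shares 52.5% of its exon bases with Ubxn6 on the opposite strand.

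Of the 58 genes, 18 stayed under the filter and have no test. Their mean was higher at 0.8 mM for 16 of the 18, all but Mcm10 and Pold3. Of the 12425 genes of the table that were above 0 but under the filter, 56.2% had a higher mean at 0.8 mM. Rbl1, Cdc6, Gins3, Pole, Msh6 and Uhrf1 had every 0.8 mM library above every 0.2 mM library, 6 of 18, where 2.21% of those genes did (1.54% in the other direction), and 4.67% of the 5415 with a mean of at least 0.1 TPM. Pole, the catalytic subunit of polymerase epsilon, was at 0.238, 0.110 and 0 TPM and between 0.356 and 0.989 TPM (median 0.574), and passed in a fit with no filter (log2 fold change 0.53 ± 0.14, limma adjusted p = 0.0416), in which 10.3% of 22474 genes passed. Gins3 was at 0.203, 0.185 and 0.0557 TPM and between 0.400 and 1.26 TPM (median 0.621), with an adjusted p of 0.0519 in that fit. Uhrf1 was at 0.431, 0.216 and 0.151 TPM and between 0.466 and 0.935 TPM (median 0.596), with an adjusted p of 0.0910. At such levels a few reads can set a value, and the number of reads is unknown.

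**Figure D4:**
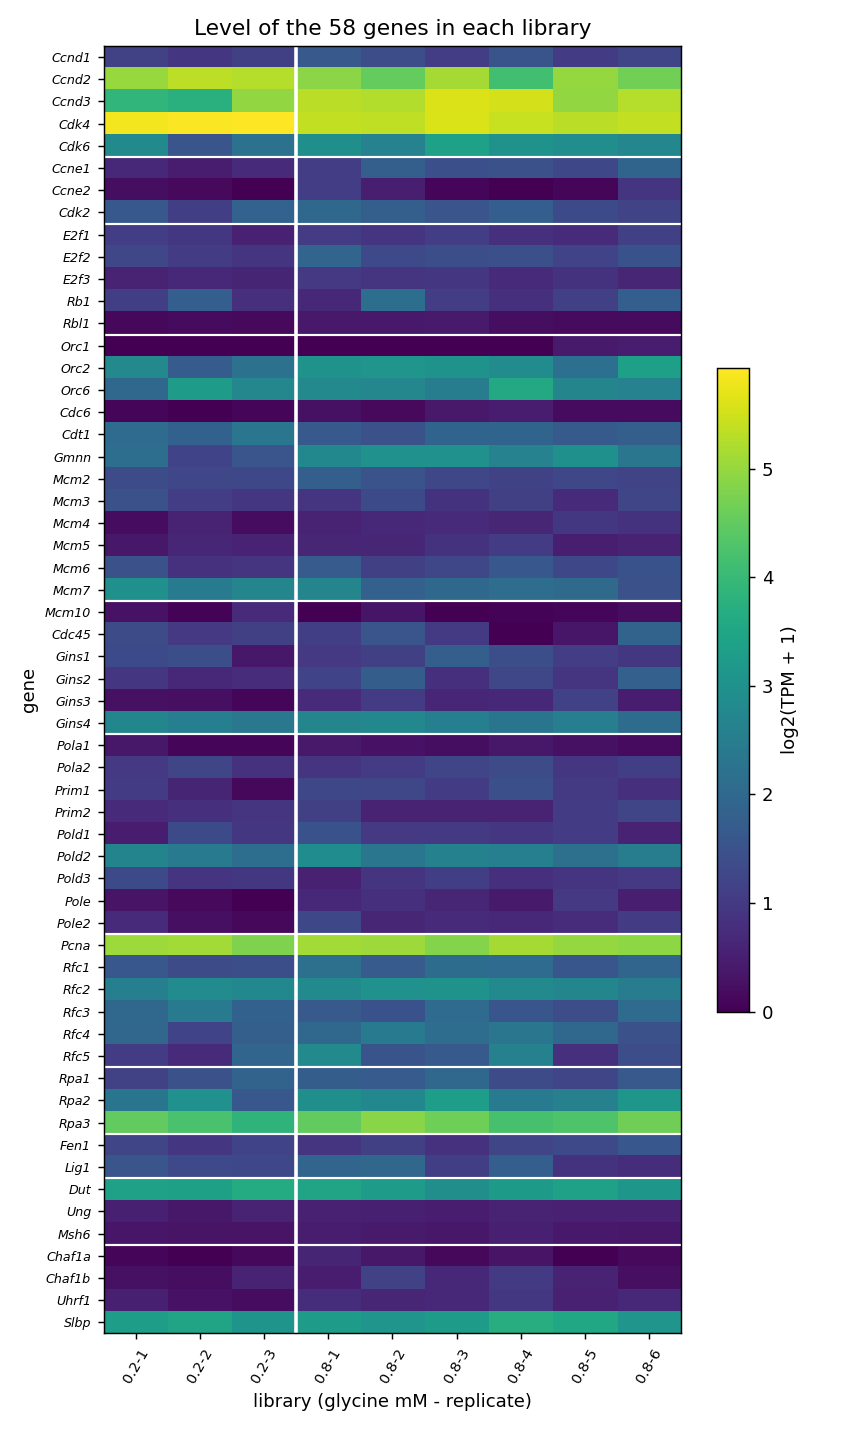
Level of each of the 58 genes (rows, grouped by role with white lines between roles) in each library (columns, 0.2 mM left and 0.8 mM right of the white line), as log2(TPM + 1) from dark at 0 to yellow. Cdk4, Ccnd2, Ccnd3, Pcna and Rpa3 are the bright rows, the 5 genes with a mean of at least 10 TPM, and 20 of the 58 have a mean under 1 TPM.

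Other genes of the pathway, listed by name, were tested in the same fit, in which 16.7% of all tested genes rose and 9.81% fell. Of 26 other G1/S regulators, 21 were tested, 8 rose and 0 fell. The inhibitor gene Cdkn1c (p57) rose from 11.1 ± 1.19 to 132 ± 24.8 TPM (log2 fold change 3.43). Cdkn1a (p21), another inhibitor, was at 156 ± 19.3 and 368 ± 19.8 TPM (1.24), and E2f8, a repressing E2F, at 0.869 ± 0.667 and 2.26 ± 0.489 TPM (0.85), and both rose. The call of E2f8 was lost without 0.2 mM replicate 1 or 2 (adjusted p up to 0.0693). Of 35 other replication factors, 23 were tested, 3 rose and 2 fell. Those that rose were Rnaseh2c, a subunit of ribonuclease H2, from 16.1 ± 2.66 to 27.7 ± 1.51 TPM, Pold4, the smallest polymerase delta subunit, from 19.04 ± 0.793 to 25.7 ± 1.79 TPM, and the topoisomerase gene Top1, from 18.6 ± 1.72 to 22.4 ± 0.902 TPM. Those that fell were Rnaseh2b, from 4.62 ± 0.354 to 3.36 ± 0.266 TPM, and Pole4, from 23.8 ± 1.44 to 19.6 ± 1.78 TPM. The calls of Top1, Rnaseh2b and Pole4 were lost with any of 6, 5 and 8 libraries left out (adjusted p up to 0.155, 0.105 and 0.15). Of 8 tested genes of deoxynucleotide supply, 2 rose and 0 fell, both subunits of ribonucleotide reductase: Rrm2, at 2.22 ± 0.183 and 7.48 ± 1.64 TPM (log2 fold change 1.38), and Rrm1, at 0.687 ± 0.102 and 1.90 ± 0.565 TPM (0.76). Rrm1 was under 1 TPM in every 0.2 mM library, so it met the filter through its 0.8 mM libraries alone. In limma with the library number as a block in libraries 1 to 3 of each group, Rrm1 and Pold4 did not pass (adjusted p = 0.0761 and 0.0779). E2f8, Top1, Rnaseh2b and Pole4 also missed in that limma fit (adjusted p = 0.0869, 0.2445, 0.167 and 0.286). Of 6 tested genes of mismatch and base excision repair, 0 rose and 0 fell by limma.

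Markers of other cells and states moved with glycine level too, and their part in the results above was not tested. Of all tested genes, 16.7% rose and 9.81% fell. Of 14 tested muscle differentiation genes 14 rose, with a summed level of 3189 to 3758 TPM at 0.2 mM and 8868 to 10581 TPM at 0.8 mM, and of 16 tested mitosis genes 12 rose, with sums of 94.9 to 107.7 and 172.8 to 208.9 TPM. Of these genes, Myh8, Aurka, Aurkb and Nusap1 met the filter through 0.8 mM libraries alone, and all but Nusap1 rose. Cks2, which rose, made up most of the mitosis sum at 65.2 ± 7.14 and 98.5 ± 8.10 TPM. The 58 members summed to 259 to 261 TPM and 252 to 301 TPM. Of 11 myoblast markers 8 rose and none was at 0 throughout. Pax7, which did not pass, met the filter through 0.8 mM libraries alone. Of 11 macrophage markers 3 rose, among them Itgam, which met the filter through 0.8 mM libraries alone, and 1 fell. None of the 11 was at 0, and their sums were 1853 to 2025 and 2020 to 2465 TPM. The most abundant of them differed in direction: Lyz2 rose from 588 ± 30.6 to 1013 ± 153 TPM and Tyrobp from 181 ± 19.8 to 241 ± 17.0 TPM, Cd68 fell from 182 ± 13.6 to 57.6 ± 2.38 TPM, and Fcer1g, at 949 ± 39.2 and 888 ± 36.3 TPM, did not pass. Of 8 tested fibroblast markers 5 rose, with sums of 1974 to 2387 and 1819 to 2372 TPM and Tcf21 at 0. Dcn, which did not pass, made up most of that sum at 1878 ± 184 and 1689 ± 209 TPM, and those that rose included Lum, from 6.24 ± 1.03 to 19.7 ± 2.24 TPM, Col1a1, from 60.8 ± 11.4 to 115.7 ± 14.0 TPM, and Col3a1, from 123 ± 14.7 to 201 ± 18.8 TPM. Of 4 tested endothelial markers 4 rose, with sums of 11.2 to 12.1 and 20.2 to 29.7 TPM. Among them, Pecam1 and Cdh5 were under 1 TPM in every 0.2 mM library, so they met the filter through 0.8 mM libraries alone. Of the adipocyte list only Fabp4 was tested, which rose, with Lep at 0. In such bulk samples, fewer cells of a type and less RNA per cell cannot be told apart.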

How the data were processed

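The authors deposited 1 table of TPM for 9 libraries of primary myoblasts, with a gene ID and a symbol per row. Per the submitters' processing notes, HISAT2 2.0.5, StringTie 1.3.3 and DESeq2 were used with the mm10 build. Which annotation was counted, and whether by strand, is not stated in the labels or the file. Each library has the same total, so very abundant RNAs lower all other values of a library.

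Libraries were grouped by the glycine level in their titles. Because TPM are not counts, limma 3.58.1 in R 4.3.3 (lmFit, eBayes with trend, two-sided) was run on log2(TPM + 1) over all genes with at least 1 TPM in at least 3 libraries. The fit was tested on simulated data with independent noise, which cannot show whether the real libraries vary independently. Shares within a family were compared by an exact permutation test over the libraries (84 arrangements). The shares of Cdk6, Mcm7 and Gmnn were chosen after the values were seen. Their p-values are descriptions only, and the adjustment over the shares does not correct for that choice. Positions and exon overlaps came from GENCODE M21 on GRCm38, promoters from RefSeq on GRCm38.p6, and near-identical transcripts (95% over 200 bases) from minimap2 2.31. The members, lists and tests were chosen with earlier results of these data known. Values by library are given for members that passed and for up to 3 of the highest in each role, and other pathway genes are named if they passed, up to 3 per list and direction. Other named genes were chosen after their values were seen. Alternatives were other pseudocounts (0.1, 0.5), filters, scalings, variance settings, each library left out, and the library number as a block, with libraries 1 to 3 without the block added after the data were seen. Figures used matplotlib 3.10.9 in Python 3.11.15.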

Additional observations from a re-analysis of the deposited data

Results flagged for a closer look

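In the 0.8 mM group, 3 of the 64 sets of 6 values examined held a library far from the rest by Dixon's test, and chance flags about 1 in 20 such sets. Cdk4 was at 47.4 TPM in replicate 3, the highest of that group and still below every 0.2 mM library. E2f2 was at 2.84 TPM in replicate 1. Orc6 was at 10.94 TPM in replicate 4. The groups of 3 libraries at 0.2 mM are too small for this test.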

How the results depend on the processing

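Over 19 alternatives, Ccnd3 and Cdk4 passed in every one and Gmnn in the 18 where it was tested, with adjusted p up to 0.0314, 0.0296 and 0.0253. Ccne1 passed in 17 of 18. Cdk6 passed in 5 of 19 (adjusted p up to 0.219) and Mcm7 in 6 of 18 (up to 0.179). Beside left-out libraries and scalings, Cdk6 missed with no filter (0.122), without the variance trend (0.0588), with robust variances (0.0507), with the block (0.0890) and with libraries 1 to 3 alone (0.147), and Mcm7 with no filter (0.113), without the trend (0.0523), with the block (0.0801) and with libraries 1 to 3 alone (0.179). Same-numbered libraries of the groups had correlations of their deviations from the group means of 0.038, 0.002 and 0.107. Other pairs ran from -0.1 to 0.061. So few libraries cannot settle whether the numbers pair the samples, and the labels do not say. With the number as a replicate block in libraries 1 to 3 of each group, 1713 genes passed (1117 rose, 596 fell) and 3 members (2 rose, 1 fell), with Ccne1 at an adjusted p of 0.0772. With a mean of at least 5 TPM as the filter, 3 members passed (2 rose, 1 fell), since 12 were tested. Only 1 member fell with no filter, without the variance trend or with libraries 1 to 3 and no block, and 1 to 2 fell with a library left out. With a 0.2 mM library left out, the permutation test of the shares cannot reach 0.05. Log2 fold changes near 0 turned sign for members that did not pass, and the cause was not tested. By median-ratio scaling and quantile normalization these were Lig1 (-0.037, -0.067), Slbp (-0.041, -0.053), Rb1 (-0.0046, -0.041), Fen1 (-0.0017, -0.044) and Pcna (-0.068, -0.070), and by quantile normalization alone Pola2 (-0.014), Prim2 (-0.080), E2f1 (-0.022) and Pold1 (-0.0072). Lig1 was at -0.044 and -0.0040 with pseudocounts of 0.1 and 0.5. Libraries 1 to 3, with or without the block, gave -0.076 for Slbp, -0.17 for Fen1, -0.063 for Prim2, 0.12 for Gins4 and 0.072 for Cdc45. Leaving out a library gave ranges of -0.094 to 0.14 for Lig1, -0.073 to 0.13 for Slbp, -0.16 to 0.32 for Rb1, -0.048 to 0.11 for Fen1, -0.085 to 0.077 for Pcna, -0.024 to 0.18 for Pola2, -0.037 to 0.098 for Prim2, -0.081 to 0.19 for E2f1, -0.13 to 0.29 for Pold1, -0.055 to 0.31 for Rpa1, -0.15 to 0.031 for Gins4, -0.17 to 0.46 for Orc6, -0.24 to 0.033 for Mcm3, -0.13 to 0.26 for Cdk2, -0.040 to 0.22 for Pold2, -0.16 to 0.36 for Gins1, -0.0090 to 0.11 for Mcm2 and -0.34 to 0.031 for Cdc45. In all, 638 of 732 values for single members kept their direction and side of the threshold.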

Other observations

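E2F-type sites were more common in the promoters of members with low RNA. They were found for 8 of 15 members under the filter, or 53.3%, and for 4 of 31 tested members, or 12.9%, a split seen after the sites had been searched. Over the whole table they were found for 3.83% of tested genes and 2.16% of all genes. Some windows lie largely in the gene's own annotated exons, so a missing site there says little about the sequence upstream. Tested examples are E2f1 (250 bases), Fen1 (222, in 1 window), Dut (170) and Pcna (134). Under the filter, Gins3 had 106 such bases and Cdc6 had 81. CCAAT boxes were found for 9 of those 15 and 19 of those 31. Summed TPM of the D cyclins was 56.0 ± 11.4 at 0.2 mM and 67.2 ± 8.52 at 0.8 mM, that of Cdk4 and Cdk6 was 61.9 ± 1.61 and 48.4 ± 4.42, and that of Mcm2 to Mcm7 was 10.2 ± 1.91 and 8.90 ± 1.65. The residual SD of log2 values had a median of 0.285 over tested members and 0.264 over the tested genes of like level.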
